A study of Mus musculus with 7 samples.

Results

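Krüppel-like factors (KLFs) are transcription factors that bind GC-rich and CACCC-type sequences through zinc fingers, and several of them set how strongly retinal ganglion cells and other central neurons can extend axons. KLF4 and KLF9 are known as brakes on axon growth in rodent ganglion cells, whereas KLF6 and KLF7 are known to favour it. Other members link gene expression to steroid and thyroid hormones, the daily clock, TGF-beta or blood flow. The 9 genes described here, Klf2, Klf4, Klf6, Klf7, Klf9, Klf10, Klf12, Klf13 and Klf15, were taken by symbol from a list of KLF genes linked to axon growth. All 9 had a row in the count table of 25655 genes, and all 9 had enough counts to be among the 14750 genes tested.

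The samples were whole retinas of wild-type C57BL/6 mice, taken 2 days after the optic nerve was crushed, which damages the nerve fibres that carry retinal output to the brain. Each had received AAV2, a viral vector often used to reach ganglion cells, that carried either a Tppp3 overexpression construct, for a protein that helps tubulin assemble into microtubules, or a control construct with the CMV promoter. The labels do not state the promoter of the Tppp3 vector, the age of the mice or the time between vector and crush, and no uninjured retina is among the samples. The comparison rests on 3 Tppp3 AAV2 and 3 control AAV2 libraries, the labels do not say whether each came from another animal, and ganglion cells are a small part of a retina.

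Gene counts per library ranged from 19961359 to 21843892 in the Tppp3 AAV2 retinas and from 10961443 to 16218074 in the control retinas, so every Tppp3 AAV2 library was the deeper. Tppp3 itself was at 53.7, 36.5 and 41.8 CPM in the Tppp3 AAV2 libraries and at 18.7, 22.2 and 28.0 CPM in the control libraries. CPM here are counts relative to the library size after edgeR's TMM scaling. Markers of rods, the commonest retinal neuron, summed to 46841 to 55937 CPM in Tppp3 AAV2 and 53532 to 60574 CPM in control libraries, so rod transcripts were abundant in every library. Ganglion cell markers summed to 694 to 813 CPM in Tppp3 AAV2 and 748 to 769 CPM in control libraries. The microglia markers summed to 203, 337 and 167 CPM in Tppp3 AAV2 replicates 1, 2 and 3 and to 181, 315 and 294 CPM in control replicates 1, 2 and 3. Pigment epithelium markers ran the other way, at 139, 48.5 and 130.3 CPM in the Tppp3 AAV2 libraries and 132.5, 32.8 and 37.8 CPM in the control libraries. Y-linked genes were high in Tppp3 AAV2 replicate 2 and control replicate 1 and near 0 in the other 4 libraries.

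The promoter sequences of 6 members are shown because they hold letters that KLF and SP proteins, MEF2 factors or clock proteins are known to bind, and because these members stand for the growth brakes (Klf4, Klf9), the growth-favouring genes (Klf6, Klf7), the least steady gene (Klf2) and a hormone-linked and clock-linked gene (Klf15). Each runs 5′ to 3′ on the gene's strand, from 250 bases before the annotated start to 50 bases after it, from RefSeq on build GRCm38.p6, in which 8 of the 9 members had an entry. Capitals mark the GC box GGGCGG, the CACCC box CACCC, the MEF2-type run of CTA, any 4 bases and TAG, and the E-box CACGTG on either strand, and neighbouring or overlapping matches merge into 1 run of capitals. The windows are chr4:55532426-55532725 (minus strand) for Klf4, chr19:23140976-23141275 (plus) for Klf9, chr13:5861239-5861538 (plus) for Klf6, chr1:64121340-64121639 (minus) for Klf7, chr8:72318812-72319111 (plus) for Klf2 and chr6:90462326-90462625 (plus) for Klf15.
Klf4: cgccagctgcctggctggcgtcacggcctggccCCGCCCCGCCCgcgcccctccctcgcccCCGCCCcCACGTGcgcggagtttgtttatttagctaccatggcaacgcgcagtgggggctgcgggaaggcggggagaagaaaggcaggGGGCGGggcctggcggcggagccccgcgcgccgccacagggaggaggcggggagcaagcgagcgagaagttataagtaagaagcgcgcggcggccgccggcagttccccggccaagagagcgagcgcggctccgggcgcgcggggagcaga
Klf9: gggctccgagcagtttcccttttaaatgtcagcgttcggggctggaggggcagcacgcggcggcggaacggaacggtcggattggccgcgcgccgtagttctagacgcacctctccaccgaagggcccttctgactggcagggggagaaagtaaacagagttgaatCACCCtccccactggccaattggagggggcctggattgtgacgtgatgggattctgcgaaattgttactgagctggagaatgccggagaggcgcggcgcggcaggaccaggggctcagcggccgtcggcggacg
Klf6: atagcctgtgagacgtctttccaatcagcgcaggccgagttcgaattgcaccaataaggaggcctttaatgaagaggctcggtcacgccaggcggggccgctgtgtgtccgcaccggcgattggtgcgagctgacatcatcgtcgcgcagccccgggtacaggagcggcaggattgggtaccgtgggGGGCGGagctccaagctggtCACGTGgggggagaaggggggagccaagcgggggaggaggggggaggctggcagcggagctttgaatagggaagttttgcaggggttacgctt
Klf7: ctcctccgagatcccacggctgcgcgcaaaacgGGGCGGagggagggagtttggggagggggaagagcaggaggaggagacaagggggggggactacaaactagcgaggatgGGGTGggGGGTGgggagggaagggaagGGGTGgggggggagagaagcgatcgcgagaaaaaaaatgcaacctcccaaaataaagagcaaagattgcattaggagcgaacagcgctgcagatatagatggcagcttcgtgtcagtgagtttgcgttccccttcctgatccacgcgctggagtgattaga
Klf2: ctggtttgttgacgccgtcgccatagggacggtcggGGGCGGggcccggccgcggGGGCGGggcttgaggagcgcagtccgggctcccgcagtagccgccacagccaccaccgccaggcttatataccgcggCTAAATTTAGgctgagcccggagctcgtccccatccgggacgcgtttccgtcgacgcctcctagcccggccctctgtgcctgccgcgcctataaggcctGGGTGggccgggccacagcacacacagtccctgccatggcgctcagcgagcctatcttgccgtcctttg
Klf15: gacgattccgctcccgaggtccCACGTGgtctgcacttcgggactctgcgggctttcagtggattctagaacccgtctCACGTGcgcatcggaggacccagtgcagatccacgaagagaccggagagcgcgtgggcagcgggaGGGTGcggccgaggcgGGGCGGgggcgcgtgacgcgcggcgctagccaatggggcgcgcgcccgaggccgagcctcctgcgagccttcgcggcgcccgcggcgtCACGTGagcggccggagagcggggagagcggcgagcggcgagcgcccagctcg

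Among 32851 promoter windows of this length, 35.7% held a GC box, 57.5% a CACCC box, 3.69% the MEF2-type run and 7.15% the E-box. G and C made up 58.3% (Klf7) to 74.3% (Klf4) of the 6 windows shown, against a median of 52.7% over all windows. The shares over all windows were not matched for this. Klf4 had 4 GC boxes, of which 2 overlapped, and at least 3 were found in 10.7% of all windows. The Klf2 window held 2 GC boxes, 1 CACCC box and, from 118 bases upstream of the start, the MEF2-type run. Klf7 had 1 GC box and 3 CACCC boxes, all 3 of them on the opposite strand and starting 138, 131 and 111 bases upstream. Klf6 had 1 GC box and 1 E-box, and Klf9 had 1 CACCC box and no GC box. The Klf15 window had 3 E-boxes, starting 228, 172 and 3 bases upstream, a number reached in 0.0883% of all windows. The letters say nothing on whether a factor was bound in these retinas.

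Levels of the members could be set side by side only per length, as CPM per kb of exon. Klf9 was the most abundant of them by a wide margin, at 29.7 ± 0.627 CPM per kb in Tppp3 AAV2 and 28.5 ± 3.54 CPM per kb in control retinas (SD, n = 3 each). It made up 45.6% of the summed length-scaled level of the 9 members in Tppp3 AAV2 and 45.7% in control retinas. Klf12 and Klf6 came next, with 14.4% and 13.5% in Tppp3 AAV2 and 14.3% and 13.1% in control retinas, and their ranges over the 6 libraries overlapped. Klf13 and Klf7 followed, also with overlapping ranges, and then Klf15, Klf10 and Klf2, each overlapping the next. Klf4 stood last at 0.658 ± 0.169 CPM per kb in Tppp3 AAV2 and 0.614 ± 0.249 CPM per kb in control retinas, 1.01% and 0.984% of the sum, and its range touched that of Klf2. A gap without overlap separated Klf9 from Klf12, Klf6 from Klf13, and Klf7 from Klf15. In whole retina, the growth brakes Klf9 and Klf4 thus held the first and the last place of the 9 members in both groups. Their order within ganglion cells cannot be read from these libraries.

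**Figure D1:**
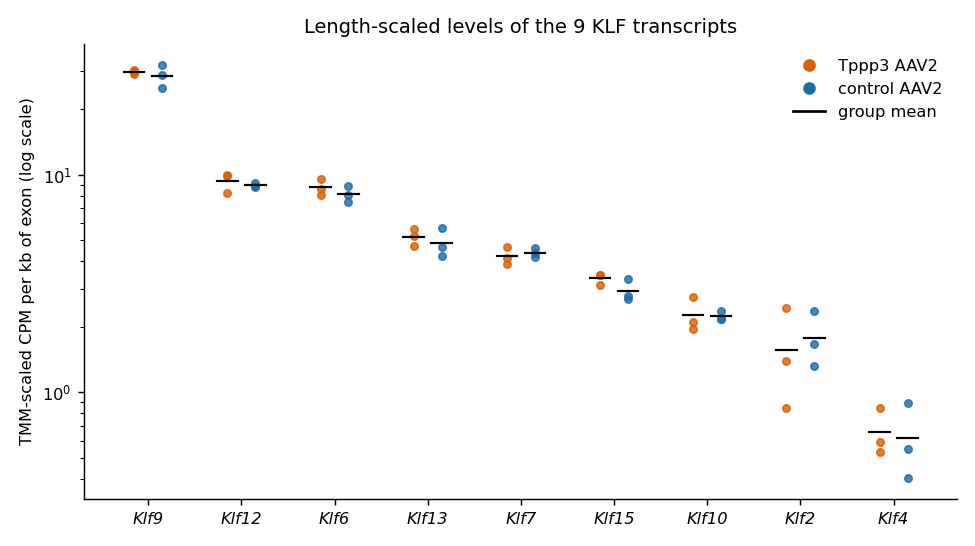
Length-scaled level of the 9 KLF transcripts in each library (y axis, TMM-scaled CPM per kb of exon, log scale), with Tppp3 AAV2 left of control AAV2 for each gene on the x axis and a black line at each group mean. Klf9 lies near 29 in both groups and Klf4 below 1, and the groups overlap for every gene.

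None of the 9 KLF transcripts differed detectably between Tppp3 AAV2 and control retinas. In edgeR's quasi-likelihood test, adjusted over all 14750 genes, 0 of 9 members passed 0.05, against 0.0136% of all genes, and 0 of 9 had an unadjusted p under 0.05, against 7.23% of all genes. DESeq2's Wald test and limma's voom with quality weights also placed 0 of 9 past either limit. Tppp3 itself, at a fold of 1.91, did not pass the adjusted limit in edgeR either. Its groups did not overlap, and its unadjusted p in edgeR was 0.00313. Over the 15 other settings described below, the adjusted p of Tppp3 ran from 1.33e-05 to 0.907, so whether it passed depended on the setting. Failing to pass in edgeR thus does not by itself exclude a difference of that size. In a fit chosen after seeing the data, with the pigment epithelium markers as a covariate, 2 of 9 were under 0.05 unadjusted. There Klf6 and Klf9 stood at log2 fold changes of 0.23 and 0.18, with unadjusted p of 0.0255 and 0.0311 and an adjusted p of 0.613 each in edgeR, where 7.47% of all genes were under 0.05 unadjusted. The ranges of the groups overlapped for 9 of 9 members, where they did not overlap for 13.9% of all genes tested. Fold changes were small: 7 of 9 members had a positive log2 fold change, against 50.9% of all genes, with a median of 0.068 against 0.0030 over all genes and a range of -0.21 to 0.18. For 6 members, Klf6, Klf7, Klf9, Klf12, Klf13 and Klf10, the 95% interval of the fold lay within 0.805 and 1.28. Larger differences of the whole-retina level fall outside these intervals, which set no bound on a change within ganglion cells alone. Fewer cells of a type and less RNA per cell cannot be told apart in whole retina.

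**Figure D2:**
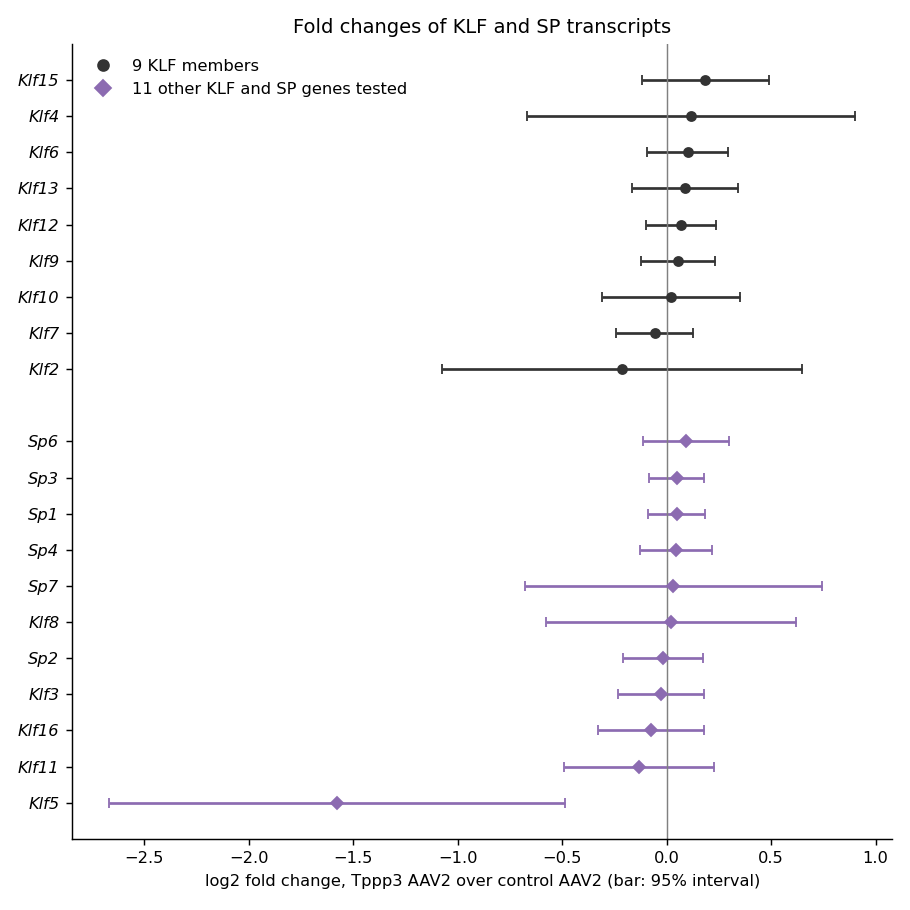
Log2 fold change of Tppp3 AAV2 over control AAV2 (x axis) with its 95% interval for the 9 KLF members (circles) and the 11 tested relatives (diamonds), from edgeR. Every member's interval includes 0, those of Klf2 and Klf4 are the widest of the 9, and Klf5, tested only through its control level, is at -1.58.

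Klf6 and Klf7, the members known to favour axon growth, differed between the groups by less than the spread between libraries. Klf6, whose zebrafish counterpart is needed for optic axon regrowth, was at 37.6, 42.1 and 35.5 CPM in Tppp3 AAV2 replicates 1, 2 and 3 and at 32.9, 35.5 and 39.1 CPM in control replicates 1, 2 and 3. Tppp3 AAV2 replicate 2 was the highest and control replicate 1 the lowest, and the other 4 libraries of the 2 groups interleaved. Its fold was 1.07 with a 95% interval of 0.937 to 1.23 (log2 fold change 0.10 ± 0.088 SE, edgeR adjusted p = 0.843). Klf7, which supports growth of mouse corticospinal axons when made more active, was at 31.5, 37.7 and 33.7 CPM in Tppp3 AAV2 and 34.1, 37.6 and 35.4 CPM in control libraries. Tppp3 AAV2 replicates 1 and 3 lay below all 3 controls, and replicate 2 just above them. The Klf7 fold was 0.960, with an interval of 0.846 to 1.09 (log2 fold change -0.058 ± 0.083 SE, edgeR adjusted p = 0.916). The level of Klf6 over Klf7, both in CPM, was 1.19, 1.12 and 1.05 in Tppp3 AAV2 libraries and 0.964, 0.944 and 1.10 in control libraries.

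Klf9 and Klf4, the brakes on axon growth, also showed no detectable difference, with very unlike precision. Klf9, which in rat ganglion cells limits optic nerve regrowth, was at 140.1, 146.1 and 142.2 CPM in Tppp3 AAV2 and 120.2, 154.3 and 137.7 CPM in control libraries. The 3 Tppp3 AAV2 libraries sat inside the span of the controls, with control replicate 1 the lowest and control replicate 2 the highest of all 6. Its fold was 1.04 with an interval of 0.917 to 1.17 (edgeR adjusted p = 0.923). Klf4, whose loss in mouse ganglion cells raises regrowth after crush, rested on only 51, 36 and 38 counts in Tppp3 AAV2 and 19, 20 and 30 counts in control libraries. That gave 2.59, 1.62 and 1.80 CPM in Tppp3 AAV2 and 1.68, 1.23 and 2.71 CPM in control libraries, with the highest and the lowest value both among the controls. The Klf4 fold was 1.08 with an interval of 0.630 to 1.87 (edgeR adjusted p = 0.967), so neither a 1.5-fold rise nor a 1.5-fold fall lies outside it. Counting error alone gave Klf4 a mean coefficient of variation of 18.4% per library, against 2.13% for Klf9.

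Klf13 and Klf15 resembled Klf9 in where they were low. Klf13, the closest relative of Klf9 among the members, was at 42.3, 39.2 and 35.3 CPM in Tppp3 AAV2 and 31.8, 43.0 and 34.9 CPM in control libraries. Klf15, which glucocorticoids induce and which regulates glucose and amino acid metabolism in liver and muscle, was at 9.70, 8.70 and 9.64 CPM in Tppp3 AAV2 and 7.51, 9.28 and 7.77 CPM in control libraries. For Klf15, 2 of 3 Tppp3 AAV2 libraries exceeded every control, and control replicate 2 lay above the remaining one. Klf15 had the highest fold of the 9, 1.14 with an interval of 0.921 to 1.40 (log2 fold change 0.18 ± 0.14 SE, edgeR adjusted p = 0.809, exact two-sided permutation p = 0.2, where 0.1 is the smallest that 3 against 3 libraries can give). Klf13 had a fold of 1.06 with an interval of 0.890 to 1.27 (edgeR adjusted p = 0.909). Klf9, Klf13 and Klf15 were all lowest in control replicate 1, as was Klf6.

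Klf12, Klf10 and Klf2 complete the set. Klf12, a repressor that recruits CtBP and was found as a repressor of the AP-2alpha gene, was at 68.6, 57.7 and 70.0 CPM in Tppp3 AAV2 and 64.0, 61.2 and 62.1 CPM in control libraries, with all 3 controls inside the span of the Tppp3 AAV2 libraries. Its fold was 1.05 with an interval of 0.933 to 1.18 (edgeR adjusted p = 0.886). Klf10, an early response gene of TGF-beta, was at 8.79, 11.5 and 8.21 CPM in Tppp3 AAV2 and 9.90, 9.10 and 9.13 CPM in control libraries, again with the controls inside the span, and had a fold of 1.01 with an interval of 0.805 to 1.28 (edgeR adjusted p = 0.989). Klf2, which laminar blood flow induces in endothelium, was at 4.52, 2.57 and 1.57 CPM in Tppp3 AAV2 and 3.09, 4.36 and 2.44 CPM in control libraries. Within the Tppp3 AAV2 group it ran from the highest to the lowest value of all 6 libraries. Its fold was 0.863 with an interval of 0.475 to 1.57 (edgeR adjusted p = 0.934).

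**Figure D3:**
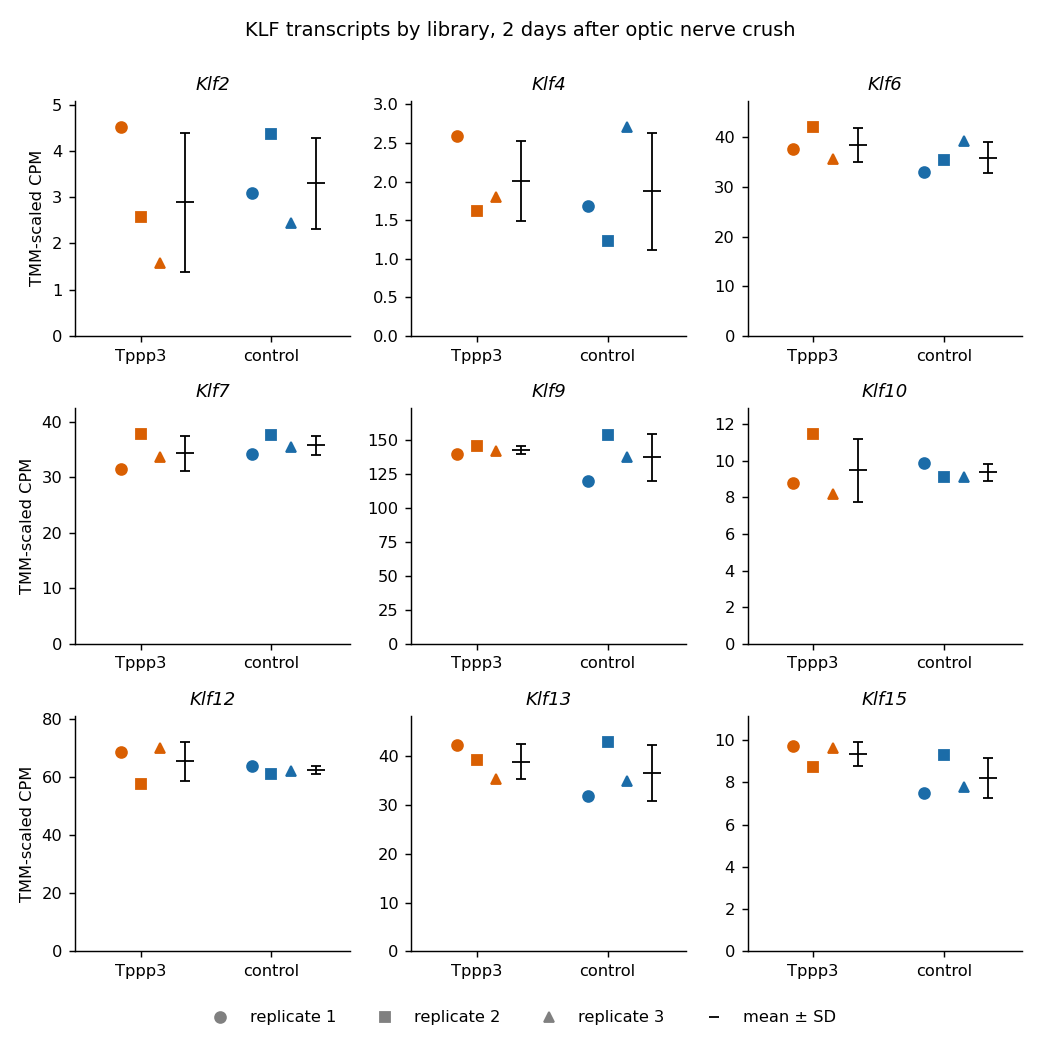
TMM-scaled CPM (y axis, from 0) of each KLF transcript in the 3 Tppp3 AAV2 libraries (orange, left) and the 3 control AAV2 libraries (blue, right), with marker shapes for the replicates and the mean ± SD beside them. The groups overlap in all 9 panels, and Klf2 spreads from 1.57 to 4.52 within the Tppp3 AAV2 group.

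The spread between libraries separated Klf2 and Klf4 from the other 7. On the log2 scale, the highest and lowest of the 6 libraries lay 1.52 apart for Klf2 and 1.13 apart for Klf4, but only 0.26 to 0.48 apart for the other 7. edgeR's biological coefficient of variation per gene was 32.6% for Klf2 and 27.8% for Klf4. It was 7.77% to 14.8% for the others, where the common value was 11.9%. Klf2 and Klf4 also had the fewest counts of the members, at 19 to 89 per library. Among the relatives of low count, Klf8, Sp7 and Klf5 had values of 20.3%, 23.7% and 30.7%. The part of low level in the wide spread of Klf2 and Klf4 was not tested. Klf2 and Klf4 were also the least alike of all pairs of members. The root mean square difference of their log2 CPM, each centred on the gene's mean over the 6 libraries, was 0.68. This measure grows with the spread of each gene, so 2 members of wide spread lie far apart unless their patterns match. Klf9 and Klf13 were the most alike at 0.093, followed by Klf9 and Klf15 at 0.10 and Klf7 and Klf9 at 0.11. Klf2 and Klf4 are both flow-induced in endothelium and can act in place of each other there. Endothelial markers summed to 349 to 498 CPM in Tppp3 AAV2 and 374 to 421 CPM in control libraries. Most of each sum was Kdr and Flt1. Kdr was at 186 to 334 CPM in Tppp3 AAV2 and 201 to 276 CPM in control libraries. Flt1 was at 112 to 120 CPM and 100 to 125 CPM. Of the 8 markers, 3 had a positive log2 fold change, and the median was -0.070. The part of these markers in the Klf2 and Klf4 values was not tested.

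**Figure D4:**
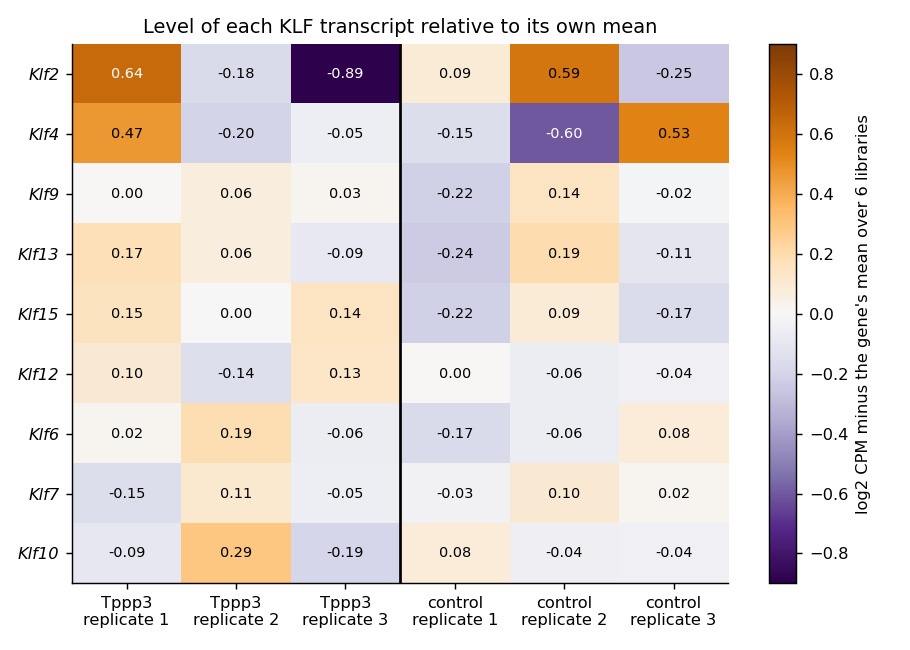
Log2 CPM of each KLF transcript minus its own mean over the 6 libraries (colour and printed value), with genes in rows and the Tppp3 AAV2 libraries left of the black line and the control libraries right of it. Klf2 and Klf4 carry the strongest colours, and Klf9, Klf13 and Klf15 share their lowest value in control replicate 1.

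Among all 11567 named genes at a mean of at least 5 CPM, the pattern most like that of a member was found by the same measure over the 6 libraries. For Klf4 it was Cyp4a10, a fatty acid hydroxylase of the cytochrome P450 family, with a difference of 0.090, which was at 7.82, 5.73 and 5.70 CPM in Tppp3 AAV2 and 4.86, 4.06 and 8.59 CPM in control libraries. Rab13 at 0.15 and Maskbp3 at 0.16 came next. Klf6 was nearest to Dpagt1, Rwdd4a and Lrrfip1, each at 0.030 or 0.031. Klf7 was nearest to Ghdc at 0.015, Trnp1 at 0.020 and Serinc5 at 0.023. Klf9 was nearest to Tlnrd1 at 0.019, Eif1a at 0.027 and Disp3 at 0.030. These are the nearest of 11567 candidates over only 6 libraries. Mean counting errors per library were 18.4% for Klf4, 4.13% for Klf6, 4.24% for Klf7 and 2.13% for Klf9. The order, also where differences are smallest, is thus only a description of these libraries.

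The other KLF and SP genes give the setting for the members. Of 17 relatives listed, 11 had enough counts to be tested, 0 of 11 passed in edgeR, 1 of 11 had an unadjusted p under 0.05, against 7.23% of all genes, and their median log2 fold change was 0.022. The SP factors Sp4, which is enriched in neurons, and Sp3 were more abundant per length than any member but Klf9, at 23.6 and 16.5 CPM per kb in Tppp3 AAV2 and 22.9 and 15.9 CPM per kb in control retinas. Sp6 had a log2 fold change of 0.093 (edgeR adjusted p = 0.872) and Klf11, a TGF-beta-inducible relative of Klf10, of -0.13 (edgeR adjusted p = 0.901). Klf14 and Klf17 had a single count each over the 6 libraries and Sp9 had 0, and Klf1, Sp5 and Sp8 were also too low to test.

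Klf5, a KLF of epithelia, was the relative with the unadjusted p under 0.05. It had 9, 5 and 11 counts in Tppp3 AAV2 and 21, 16 and 9 counts in control libraries, or 0.457, 0.226 and 0.522 CPM in Tppp3 AAV2 and 1.86, 0.983 and 0.813 CPM in control libraries. All 3 Tppp3 AAV2 libraries lay below all 3 controls. The filter on low counts sat at about 0.553 CPM, which 0 of 3 Tppp3 AAV2 and 3 of 3 control libraries reached, so Klf5 was tested only through the group in which it was higher, and a gene that enters this way has to differ. The fitted Klf5 difference was -1.58 ± 0.50 on the log2 scale (SE), at an unadjusted p of 0.00858 and an adjusted p of 0.639 in edgeR, and it did not pass over all genes. Without control replicate 1 its log2 fold change was -1.17 and the unadjusted edgeR p 0.0581.

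Epithelial markers, read beside Klf5, differed between those tested and those too low to test. Of 10 listed, 6 lay lower in every Tppp3 AAV2 library than in any control library (Krt7, Krt8, Krt14, Itgb4, Epcam and Cdh1), 2 lay higher in every one (Krt12 and Krt19) and 2 overlapped (Krt5 and Krt18), where 13.9% of all genes tested did not overlap in one direction or the other. Only 7 of the 10 had enough counts to be tested. Of these 7, 0 had a positive log2 fold change, against 50.9% of all genes, and 6 did not overlap. Their median log2 fold change was -0.80, and Krt7 alone passed in edgeR. The 3 that were too low to test had more counts in sum in Tppp3 AAV2 libraries: the corneal keratin gene Krt12 had 10, 10 and 9 counts in Tppp3 AAV2 and 1, 6 and 4 in control libraries, Krt19 had 1, 1 and 21 in Tppp3 AAV2 and 0, 0 and 0 in control libraries, and Krt5 had 7, 1 and 38 in Tppp3 AAV2 and 0, 2 and 0 in control libraries. The list summed to 87.5, 110.7 and 105.8 CPM in Tppp3 AAV2 and 139.8, 127.3 and 155.1 CPM in control libraries. In raw counts the integrin gene Itgb4 had 130, 126 and 134 in Tppp3 AAV2 and 136, 188 and 141 in control libraries, and the cadherin gene Cdh1 had 108, 125 and 132 in Tppp3 AAV2 and 133, 155 and 151 in control libraries. These raw counts were no higher in the Tppp3 AAV2 libraries although those were deeper, and the part of depth in the lower CPM of both genes was not tested. Nor was the part of these markers, and of depth, in the Klf5 values tested.

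**Figure D5:**
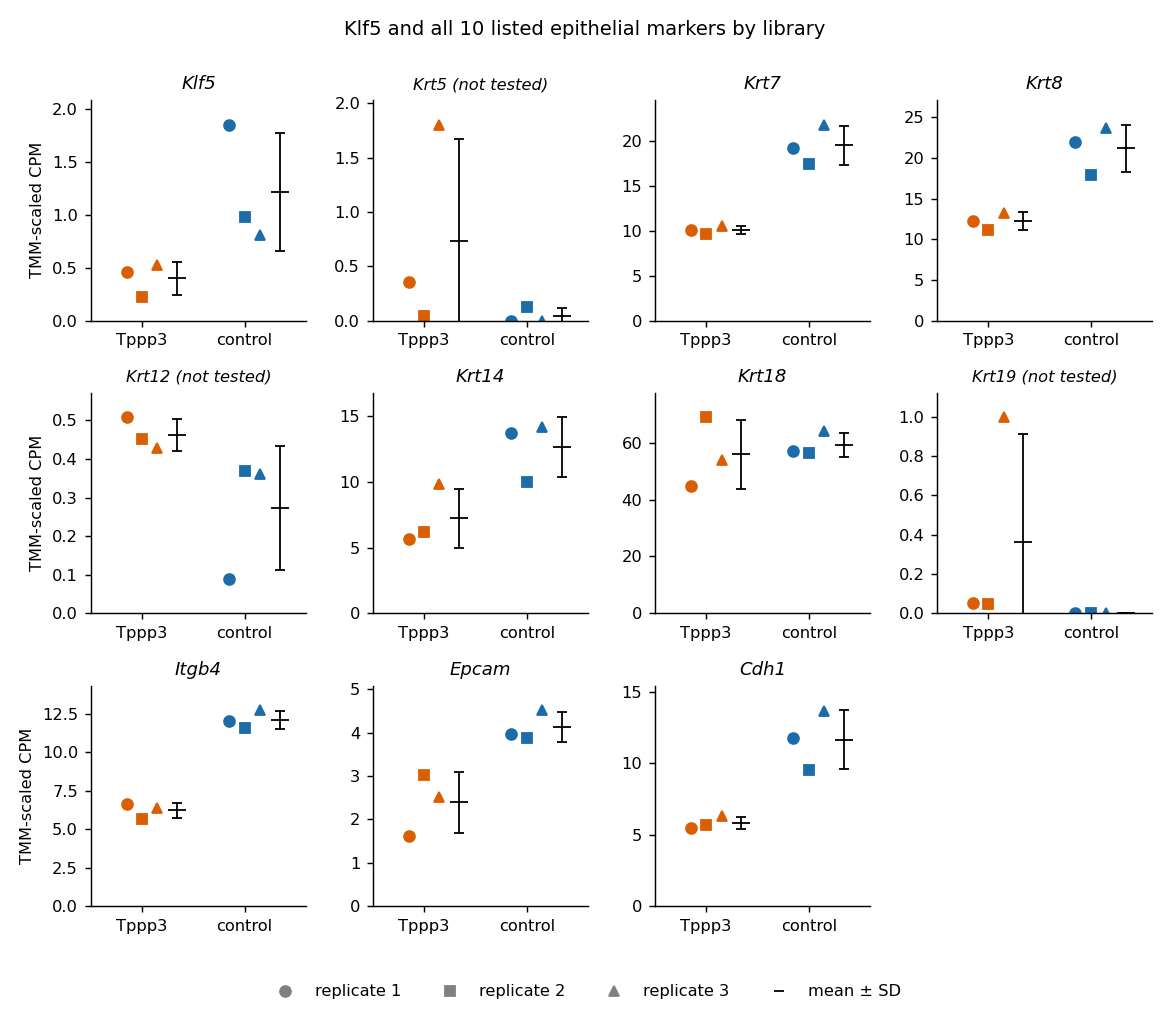
TMM-scaled CPM (y axis, from 0) of Klf5 and of all 10 listed epithelial markers in the Tppp3 AAV2 libraries (orange, left) and the control AAV2 libraries (blue, right), with the mean ± SD beside them. Klf5 and 6 markers have the 3 Tppp3 AAV2 libraries below the 3 control libraries, Krt12 and Krt19 have them above, and Krt5 and Krt18 overlap.

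Inducers, cofactors and targets of the KLFs were then read from the same fit. Over 6 lists together, 64 of 66 genes were tested, 0 passed in edgeR, DESeq2 or voom, and 4 of 64 (6.25%) had an unadjusted p under 0.05, against 7.23% of all genes. The groups did not overlap for 7 of the 64, where they did not overlap for 13.9% of all genes tested. Among the 12 inducers (0 passed, median log2 fold change -0.038), Mef2d, of the MEF2 family that drives Klf2 and Klf4 in endothelium, was at 547, 523 and 527 CPM in Tppp3 AAV2 and 504, 494 and 459 CPM in control libraries. The groups did not overlap, and its log2 fold change was 0.13 (unadjusted p = 0.0284, adjusted p = 0.665 in edgeR). Mef2a stood at 0.11 and the mineralocorticoid receptor gene Nr3c2 at -0.075. Of the 12 corepressors and coactivators through which KLFs act, 0 passed, with a median of 0.013, and the acetyltransferase gene Crebbp stood at 0.13, Hdac3 at -0.077 and Ep300 at 0.048.

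Partners and targets in axon growth included the genes by which KLF4 and KLF9 are known to act. Of these 10 genes 0 passed and the median log2 fold change was 0.069. Cdkn1b, a cell cycle inhibitor gene, was at 182, 180 and 171 CPM in Tppp3 AAV2 and 159, 161 and 157 CPM in control libraries, with no overlap (log2 fold change 0.16, unadjusted p = 0.00671, adjusted p = 0.639 in edgeR). Mapk10, which encodes the JNK3 kinase that binds KLF9, stood at 0.10 and Jak2 at 0.12, with adjusted p of 0.726 and 0.728. Stat3, whose product KLF4 binds and restrains, varied within both groups, at 156, 205 and 103 CPM in Tppp3 AAV2 and 94.0, 168 and 190 CPM in control libraries, and its target Socs3 at 11.5, 17.3 and 4.70 CPM in Tppp3 AAV2 and 5.04, 10.7 and 13.4 CPM in control libraries. Both were lowest in Tppp3 AAV2 replicate 3 and control replicate 1, the libraries with the fewest microglia marker CPM. Klf6, Klf9, Klf13 and Klf15 were lowest in control replicate 1 too. In Tppp3 AAV2 replicate 3, however, Klf9 and Klf15 were at 142.2 and 9.64 CPM, above their control means of 137.4 and 8.19 CPM. There Klf6 and Klf13 were at 35.5 and 35.3 CPM, below their control means of 35.8 and 36.6 CPM. A link of these 4 members to the microglia level was not tested. Stat3 and Socs3 had their highest level in Tppp3 AAV2 replicate 2, as did Klf6, Klf7 and Klf10. Dusp14, a phosphatase gene through which KLF9 acts in rodent ganglion cells, was at 14.5, 13.1 and 12.3 CPM in Tppp3 AAV2 and 14.3, 14.6 and 13.8 CPM in control libraries (log2 fold change -0.10, edgeR adjusted p = 0.880).

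Hormone and stimulus response genes completed the lists. Of 10 glucocorticoid response genes, the class to which Klf9 and Klf15 also belong, 0 passed, with a median log2 fold change of 0.091. Dusp1 was at 27.0, 26.2 and 27.3 CPM in Tppp3 AAV2 and 29.4, 34.2 and 28.3 CPM in control libraries, without overlap (log2 fold change -0.19, unadjusted p = 0.0465, adjusted p = 0.687 in edgeR). Tsc22d3 stood at 0.21 and Errfi1 at 0.13. Of 15 immediate-early genes tested, 0 passed and the median was -0.0037, with Ier3 at 0.29 (unadjusted p = 0.00656, adjusted p = 0.639 in edgeR), Zfp36 at 0.38 and Egr1 at 0.67. Of 5 tested endothelial genes that KLF2 and KLF4 regulate, 0 passed, with Thbd, the gene of the anticoagulant thrombomodulin, at 0.47 (edgeR adjusted p = 0.802), the endothelin gene Edn1 at -0.24 and the nitric oxide synthase gene Nos3 at 0.082.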

How the data were processed

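The table the authors deposited holds raw counts, with 1 row per gene symbol and no scaling (per the file headers). Build GRCm39 (mm39) is named in the submitters' processing notes. Aligner, counter, annotation and strand handling were not given in the sources used here. The kit does not mark strand, so reads of overlapping genes cannot be told apart. The labels list 4 control AAV2 and 3 Tppp3 AAV2 samples, whereas their protocol gives the reverse numbers, and the labels were followed. Columns were used where their name matched a sample title, which gave 6 libraries. The table's columns are named as 3 control and 4 Tppp3 libraries, which goes with the protocol and not with the labels. The column named as Tppp3 library number 4 matched no sample title and was left out, and control replicate 4 of the labels was not analysed here. P-values set the difference between the groups against the spread between these libraries. The labels do not say whether that is a spread between animals.

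Genes passing edgeR's expression filter were scaled by TMM and tested with edgeR's robust quasi-likelihood F test, two-sided, Benjamini-Hochberg adjusted over all tested genes, threshold 0.05. The standard error is the fold change over the root of F, and 95% intervals use the moderated degrees of freedom. The procedure was tested on simulated data. Lengths are merged exons of GENCODE release M21 (GRCm38), another build than the authors', and no coordinates but those of the promoter windows are given. Members and lists were chosen with earlier results of these data known. Genes named outside the members are the 3 of smallest p in each list and those passing the threshold. Added to these are the 3 of nearest pattern for Klf4, Klf6, Klf7 and Klf9 (predicted and numbered genes left out). Chosen after their values were seen were Sp3, Sp4, Sp7, Klf8, Stat3, Socs3, Dusp14, Kdr and Flt1. The epithelial markers and the relatives too low to test were chosen in the same way. Tests ran in edgeR 4.0.16, DESeq2 1.42.0 and limma 3.58.1 under R 4.3.3, and figures in matplotlib 3.10.9 under Python 3.11.15.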

Additional observations from a re-analysis of the deposited data

How the results depend on the processing

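Under each of 15 other settings, 0 members passed, and so did 0 relatives and 0 pathway genes; the adjusted p of members ranged from 0.534 to 0.999. The 2 genes called lower over the whole table became 12 with DESeq2's Wald test, which called 2 higher, 6 without a low-count filter, 1 after thinning to the shallowest library and 0 with voom. With sex, read from Y-linked counts, as a covariate they became 0, and with the pigment epithelium level 1 lower and 1 higher; these covariates were chosen after seeing the data. Leaving out single libraries gave 0 to 1 lower and 0 to 2 higher.

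Members' directions were less steady: 12 of 135 values changed sign, and Klf6 and Klf15 alone never did. With single libraries left out, log2 fold changes ranged from -0.69 to 0.083 for Klf2, -0.13 to 0.47 for Klf4, -0.037 to 0.15 for Klf9, -0.14 to 0.11 for Klf10, -0.0066 to 0.22 for Klf13, -0.0034 to 0.15 for Sp6, -0.17 to 1.3e-04 for Hdac3 and -0.033 to 0.15 for Nos3. Klf10 was at -0.015 with voom and -0.031 after thinning, and with the pigment epithelium covariate Klf7 was at 0.024, Klf12 at -0.014, Klf6 at 0.23, Klf9 at 0.18 and Klf13 at 0.20. The causes were not tested. Klf5 was too low to test at a mean of 1 CPM or after thinning, and ranged from -2.15 to -1.17 in the other 13 settings.

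The replicate numbers do not pair the libraries: same-numbered libraries had correlations of -0.035, 0.0053 and -0.22 over 14085 genes. With the replicate number as a block, 0 genes were higher and 1 lower. Of the members, Klf4 and Klf2 had the fewest counts, at 19 to 89 per library. Their mean counting errors of 18.4% and 14.9% were below their biological coefficients of variation of 27.8% and 32.6%.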
